A study of Mus musculus with 6 samples.

Results

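The B7 ligands are immunoglobulin-family proteins on the surface of cells that meet T cells, and CD28 is the receptor on T cells for the founding pair of them. Binding of CD80 or CD86 to CD28 gives a T cell its costimulatory signal, while binding of the same ligands to CTLA4 restrains it. PD-L1 and PD-L2, encoded by Cd274 and Pdcd1lg2, bind PD-1 and dampen T cell responses, and the ICOS ligand, encoded by Icosl, binds the CD28 relative ICOS. CD276, also called B7-H3, has no generally accepted receptor, and CD83, a membrane protein known from mature dendritic cells, slows the removal of CD86 and MHC class II molecules from the cell surface.

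Here the genes Cd80, Cd86, Cd274, Pdcd1lg2, Icosl, Cd276, Cd83 and Cd28 were followed, selected by gene symbol. All 8 were found among the 46603 gene identifiers, each under a single identifier. The samples were cultures of enteric glia (EGCs), which accompany the neurons of the gut, grown as neurospheres from whole intestine of C57BL/6J embryos at embryonic day 14.5 and then kept as an adherent culture in serum. Poly(A) RNA was sequenced from 3 control libraries without treatment and from 3 libraries of cells exposed to lipopolysaccharide (LPS, a component of the bacterial cell wall) at 100 ng/ml for 12 h. The labels did not say whether replicates came from separate litters or cultures, so the p-values below measure the spread between these libraries, which may be technical.

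Libraries held from 18775316 to 23664312 counts. Values are given as CPM, counts per 1000000 of the library after scaling with the trimmed mean of M-values (TMM), and where 3 values are given for a group they follow replicates 1, 2 and 3. A gene at 3 counts or fewer was not taken as detected, and 3 counts equalled 0.124 to 0.167 CPM. Glial genes were present, with Sox10, a transcription factor of enteric glia, at 73.8 to 101 CPM across the 6 libraries and not called. Of the 8 glial markers, S100b, a calcium-binding protein, was called lower (log2 fold change -1.91, adjusted p = 0.0238 by edgeR) and Fabp7, a fatty acid carrier, higher (1.29, adjusted p = 0.0122), and both calls were lost in some fits that left out a library (adjusted p up to 0.0906). Markers of other cells were present too. The 6 mesenchymal markers summed to 10580 to 12270 CPM over the libraries, with Dcn (0.90, adjusted p = 0.0118) and Pdgfra (0.50, adjusted p = 0.0114) called higher in a test that called 9.09% of all genes higher, calls that were lost without replicate 1 or 2 of either group (adjusted p up to 0.0745). The median of the mesenchymal list was -0.09 on the log2 scale, and with replicate number as a block Lum (main -0.73, block adjusted p = 0.00581 by edgeR) and Thy1 (-1.09, 0.0209) were called lower, in a fit that called 14.9% of all genes lower. When 1 library was left out of the main fit, the log2 fold change ran from -0.98 to -0.57 for Lum and from -1.87 to -0.8 for Thy1. All 12 macrophage markers passed the filter on low counts, and their summed level ranged from 3914 to 11880 CPM in control and from 3936 to 19440 CPM in LPS. The libraries numbered 3 stood apart in both groups, since all 12 macrophage markers were higher there than the mean of replicates 1 and 2, by a median factor of 2.69 in control and 6.85 in LPS. In bulk RNA, fewer cells of a type and less RNA per cell cannot be told apart.

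The members differed between LPS and control in opposite directions. Cd274 and Icosl rose, by 20.3-fold and 9.68-fold, while Cd28, Cd83 and Cd276 fell to 0.102, 0.123 and 0.731 of the control level. Cd80 and Cd86 were not called, and Pdcd1lg2 stayed near the floor. In the edgeR quasi-likelihood test, called at an adjusted p under 0.05, 2 members were higher and 3 lower out of the 7 that passed the filter, against 9.09% of all 15226 tested genes called higher and 6.71% called lower (15.8% in either direction). The ranges of the groups did not overlap for 5 of these 7 members, 2 with LPS higher and 3 with LPS lower, against 38.7% of tested genes, 19.3% with LPS higher and 19.4% with LPS lower. With replicate number as a block, 3 members were higher and 3 lower, and that fit called 30.3% of tested genes, 15.4% higher and 14.9% lower. The median log2 fold change of the 7 was -0.37, and that of all tested genes -0.02. Called changes of at least 4-fold were found for 3.05% of tested genes upward, where Cd274 and Icosl belong, and for 0.703% downward, where Cd28 and Cd83 belong.

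**Figure D1:**
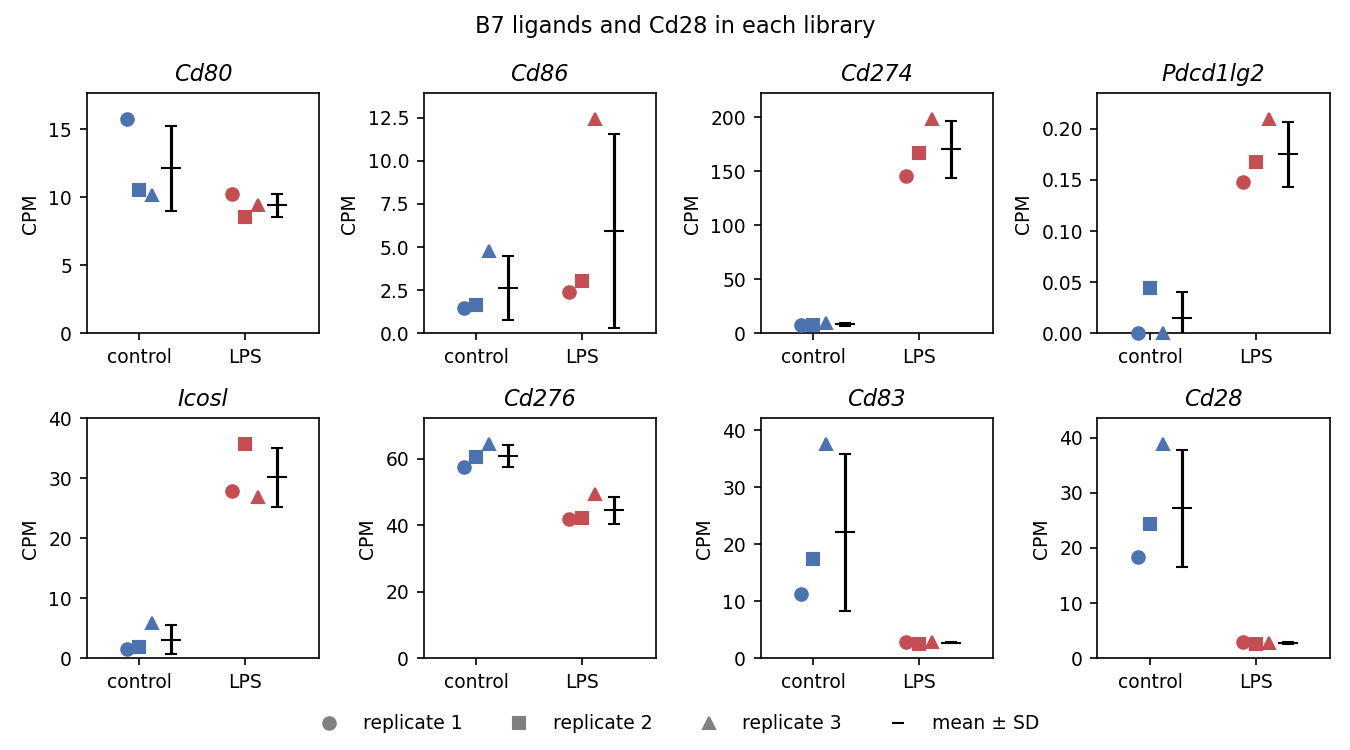
CPM (y axis, linear, starting at 0) of each member in the 3 control and 3 LPS libraries, with symbols for the replicate numbers and the mean ± SD beside them. The groups are separate for Cd274, Icosl, Cd276, Cd83 and Cd28 and overlap for Cd80 and Cd86, where replicate 3 lies highest for Cd86 in both groups. Pdcd1lg2 has 4 counts or fewer in every library.

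The promoter sequences of the members that rose, of Pdcd1lg2 beside Cd274, and of Cd276 are shown so that the start regions of genes with different behaviour can be compared. They are the 250 bases before the RefSeq start, 5′ to 3′ on the gene's strand (build GRCm38.p6), with capitals for matched letters of the motifs listed after them. Of the 8 members, 5 were in the promoter table. The gene coordinates given below come from another annotation. By those, the windows of Cd276 and Cd80 lie inside the gene, and so does the end of the Icosl window.
Cd274 (chr19:29367188-29367437, plus strand): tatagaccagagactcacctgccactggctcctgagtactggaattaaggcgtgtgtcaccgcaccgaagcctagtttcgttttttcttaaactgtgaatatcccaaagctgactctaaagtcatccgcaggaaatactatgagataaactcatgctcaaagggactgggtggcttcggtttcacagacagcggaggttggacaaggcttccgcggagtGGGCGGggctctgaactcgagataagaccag
Pdcd1lg2 (chr19:29410669-29410918, plus strand): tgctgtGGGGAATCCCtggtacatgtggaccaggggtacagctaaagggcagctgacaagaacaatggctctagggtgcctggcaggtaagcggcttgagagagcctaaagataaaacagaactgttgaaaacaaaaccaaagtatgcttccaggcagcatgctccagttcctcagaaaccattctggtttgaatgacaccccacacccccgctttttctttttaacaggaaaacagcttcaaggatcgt
Icosl (chr10:78069118-78069367, plus strand): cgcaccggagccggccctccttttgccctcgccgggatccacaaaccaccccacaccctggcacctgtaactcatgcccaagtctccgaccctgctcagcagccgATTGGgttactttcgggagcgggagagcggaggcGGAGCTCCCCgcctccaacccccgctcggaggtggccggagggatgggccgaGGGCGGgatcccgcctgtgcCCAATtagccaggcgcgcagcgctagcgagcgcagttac
Cd276 (chr9:58555034-58555283, minus strand): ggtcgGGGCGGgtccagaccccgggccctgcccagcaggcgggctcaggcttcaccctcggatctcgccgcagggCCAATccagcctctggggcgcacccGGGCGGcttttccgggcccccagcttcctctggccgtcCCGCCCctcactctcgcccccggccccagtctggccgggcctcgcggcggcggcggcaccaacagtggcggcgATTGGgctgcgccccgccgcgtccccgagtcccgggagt

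A set of 6 motifs was searched on both strands of these windows. The GAS motif of STAT factors (TTCNNNGAA), the ISRE of interferon-response factors (GAAA, any 2 bases, GAAA) and the AP-1 motif (TGANTCA) had no match in the 4 windows printed, and they occurred in 7.02%, 2.98% and 6.75% of 32851 promoter windows of the same length. AP-1 letters were present in the Cd80 window. The NF-κB motif matched at 1 position in Icosl and at 1 in Pdcd1lg2, against 7.25% of all windows. A GC box (GGGCGG), present in 32.7% of windows, was found in Cd274, Icosl and Cd276, and a CCAAT box (CCAAT), present in 33.8%, in Icosl and Cd276. The windows also differed in CpG content, with 11 CG pairs in Cd274, 3 in Pdcd1lg2, 23 in Icosl and 29 in Cd276. A match describes letters and not a bound site, and its absence says nothing of a factor.

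The PD-1 ligands lie next to each other on chromosome 19. Cd274 (ENSMUSG00000016496, 29367455 to 29388095, GRCm38, plus strand, protein coding) had 7.75, 7.44 and 9.92 CPM in control and 145, 167 and 198 CPM in LPS. Every LPS library was far above every control, and the ratio within replicate numbers was 18.7, 22.5 and 20.0. The group means were 8.37 ± 1.35 and 170 ± 26.7 CPM (SD, n = 3 each), with a log2 fold change of 4.35 (SE 0.18, 95% interval 3.90 to 4.80, adjusted p = 0.000217 by edgeR). The call held in all 17 alternatives, with adjusted p-values from 4.19e-98 to 0.00458. An antisense gene covers 14.1% of the exon bases of Cd274 on the other strand, and the strand setting of the counting was not given.

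Pdcd1lg2 (ENSMUSG00000016498, chromosome 19, 29410919 to 29471161, plus strand) starts 22823 bases after the end of Cd274. It had 0, 1 and 0 counts in control, and 3, 3 and 4 counts in LPS. The LPS libraries were above the controls, but 5 of the 6 values were at or below the 3-count floor, so no fold is given. It did not pass the filter, and when all 24879 genes with a count were tested its edgeR adjusted p was 0.104, in a fit that called 7.76% of genes (4.48% higher and 3.28% lower). With replicate number as a block in that fit it was 0.155. The log2 ratio of Cd274 to Pdcd1lg2 could not be formed in the control libraries with 0 counts.

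The 200 kb on either side of Cd274 hold further protein-coding genes. Jak2, the kinase of the interferon-γ receptor, lies 54375 bases upstream and rose, with 52.2, 52.3 and 59.6 CPM in control and 397, 422 and 214 CPM in LPS (log2 fold change 2.65, edgeR adjusted p = 0.00371). Plgrkt, a plasminogen receptor gene on the opposite strand that lies 65 bases from Cd274, was at 29.4 to 35.2 CPM in control and 29.9 to 38.2 CPM in LPS and was not called (log2 fold change 0.08, adjusted p = 0.704). Ric1 (0.35, adjusted p = 0.104) and Insl6 (0.04, adjusted p = 0.946) were not called either, and Rln1 had at most 2 counts in a library.

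Icosl (ENSMUSG00000000732, chromosome 10, 78069302 to 78083913, plus strand, protein coding) encodes the ligand of ICOS. It was at 1.53, 1.90 and 5.87 CPM in control and at 27.9, 35.7 and 26.8 CPM in LPS. All LPS libraries were above all controls, and control replicate 3 was 3.42 times the mean of the other controls, whereas LPS replicate 3 was 0.843 times the mean of the other LPS libraries. The means were 3.10 ± 2.41 and 30.1 ± 4.87 CPM (SD, n = 3 each), and the log2 fold change was 3.28 (SE 0.54, 95% interval 1.94 to 4.61, adjusted p = 0.0158 by edgeR). The ratio within replicate numbers was 18.3, 18.8 and 4.57. The call was lost without control replicate 1 or 2 or LPS replicate 1 or 2 (adjusted p up to 0.0799 by edgeR), and without control replicate 3 the log2 fold change was 4.15 (adjusted p = 0.00148).

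Neither ligand of CD28 itself was called. Cd80 (ENSMUSG00000075122, chromosome 16, 38455561 to 38496335, plus strand, protein coding) was at 15.7, 10.5 and 10.1 CPM in control and at 10.2, 8.53 and 9.42 CPM in LPS. The groups overlapped, with control replicate 1 apart from the rest. The means were 12.1 ± 3.12 and 9.39 ± 0.852 CPM (SD, n = 3 each), and the log2 fold change was -0.37, without a call (SE 0.21, 95% interval -0.87 to 0.14, adjusted p = 0.275 by edgeR). It stayed uncalled in all 17 alternatives, with adjusted p-values from 0.128 to 0.651, and was -0.13 without control replicate 1.

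Cd86 (ENSMUSG00000022901, chromosome 16, 36603869 to 36666081, minus strand, protein coding) was at 1.48, 1.64 and 4.75 CPM in control and at 2.37, 3.01 and 12.4 CPM in LPS. The groups overlapped because replicate 3 was highest in each, at 3.05 and 4.61 times the mean of replicates 1 and 2. The log2 fold change of 1.17 was not called (SE 0.80, 95% interval -0.79 to 3.13, adjusted p = 0.367 by edgeR). Within replicate numbers LPS was higher in 3 of 3 pairs, by factors of 1.6, 1.84 and 2.61. With replicate number as a block Cd86 was called higher (log2 fold change 1.02, adjusted p = 0.0279 by edgeR), against the 15.4% of tested genes given above. It was also called when the libraries numbered 3 were both left out (log2 fold change 0.80, adjusted p = 0.0442 by edgeR), a fit that called 43.0% of tested genes, 22.6% higher and 20.4% lower. Over all 17 alternatives the adjusted p ran from 0.0221 to 0.978. Without LPS replicate 3 the log2 fold change was 0.03, and without control replicate 3 it was 1.94.

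The balance of these ligands was compared per kilobase of exon. The log2 ratio of Cd80 to Cd86 was 3.39, 2.67 and 1.07 in control and 2.09, 1.49 and -0.41 in LPS. Cd80 exceeded Cd86 in every library except LPS replicate 3. The group difference of -1.32 did not pass the exact permutation test (two-sided p = 0.3, where 3 against 3 cannot go below 0.1). Within replicate numbers the ratio was lower in LPS in 3 of 3 pairs, with differences of -1.30, -1.18 and -1.49 on the log2 scale. An exact paired permutation test on 3 pairs cannot go below p = 0.25, and none was run.

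Cd276 (ENSMUSG00000035914, chromosome 9, 58524298 to 58555437, minus strand, protein coding) had the highest level per kilobase of exon among the members in control. It was at 57.6, 60.5 and 64.4 CPM in control and at 42.0, 42.2 and 49.3 CPM in LPS. The groups did not overlap, and the decrease was alike in the 3 pairs, at 0.729, 0.698 and 0.764 of control. The log2 fold change was -0.45 (SE 0.09, 95% interval -0.68 to -0.22, adjusted p = 0.03 by edgeR). The call was lost in 5 of the 6 fits that dropped a library, and was kept in the fit without LPS replicate 3, with adjusted p up to 0.124 and log2 fold changes from -0.53 to -0.39. The gene Gm10657 covers 11.4% of its exon bases on the opposite strand and had 2 to 10 counts in a library.

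Cd83 (ENSMUSG00000015396, chromosome 13, 43784775 to 43803132, plus strand, protein coding) was at 11.3, 17.4 and 37.6 CPM in control and at 2.77, 2.56 and 2.83 CPM in LPS. The controls spread more widely than the LPS libraries, with means of 22.1 ± 13.8 and 2.72 ± 0.138 CPM (SD, n = 3 each). The groups did not overlap, and LPS was at 0.246, 0.148 and 0.0752 of control within the pairs. The log2 fold change was -3.02 (SE 0.48, 95% interval -4.19 to -1.84, adjusted p = 0.0141 by edgeR). The call was lost without control replicate 2, LPS replicate 1 or LPS replicate 2 (adjusted p up to 0.0726) and with limma-voom (0.0528). Without control replicate 3 the log2 fold change was -2.38 (adjusted p = 0.00595 by edgeR).

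Cd28 (ENSMUSG00000026012, chromosome 1, 60716800 to 60773359, plus strand, protein coding), the receptor among the members, was at 18.3, 24.3 and 38.9 CPM in control and at 2.92, 2.56 and 2.83 CPM in LPS. Every control was above every LPS library, and LPS was at 0.159, 0.105 and 0.0728 of control within the pairs. The means were 27.1 ± 10.6 and 2.77 ± 0.183 CPM (SD, n = 3 each), with a log2 fold change of -3.29 (SE 0.31, 95% interval -4.06 to -2.52, adjusted p = 0.00275 by edgeR). Cd28 ranked 28th from the lowest fold change among 15226 tested genes and Cd83 ranked 38th. The call for Cd28 held in all 17 alternatives, with adjusted p-values from 4.57e-19 to 0.023. Of the 31-base words in its transcripts, 0 of 6092 were shared with another gene, whereas Cd274 shared 14.6% of its words on either strand (2.36% on the same strand) and Cd276 10.5% (0 on the same strand).

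**Figure D2:**
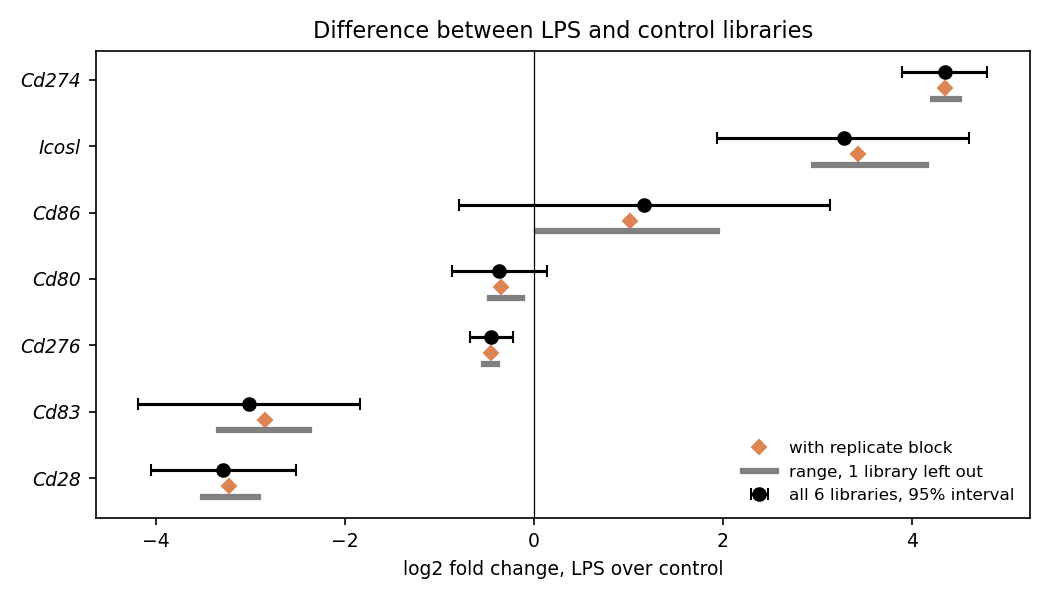
Log2 fold change of LPS over control (x axis) for the 7 tested members, with 95% intervals from all 6 libraries (black), the value with replicate number as a block (orange) and the range over fits that left out 1 library (grey). Cd274 and Icosl lie above 0, Cd276, Cd83 and Cd28 below it, and the intervals of Cd86 and Cd80 include 0.

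Markers of T cells, the cells in which CD28 is best known, were examined beside Cd28. Cd3e, Cd3d and Cd3g, which encode chains of the T cell receptor complex, had 0 counts in all 6 libraries, and 6 of the 12 T cell markers were at the floor in every library. Trac, the constant region of the T cell receptor alpha chain, had 21, 25 and 27 counts in control and 13, 7 and 13 in LPS, without overlap and not called (log2 fold change -0.85, adjusted p = 0.111 by edgeR). Lck, a T cell kinase, had 13, 5 and 19 counts in control and 27, 21 and 17 in LPS and was not called (1.11, adjusted p = 0.164). The summed level of the list was 14.8, 16.5 and 34.4 CPM in control and 7.46, 6.46 and 10.6 CPM in LPS. Most of this came from Il7r, the interleukin-7 receptor chain (9.92 to 26.3 CPM in control, 3.06 to 4.13 CPM in LPS), and from Cd4 (2.92 to 5.99 and 1.39 to 4.55 CPM). Il7r was called lower (log2 fold change -2.11, adjusted p = 0.0291 by edgeR) and lost this call without control replicate 1 or 2 or LPS replicate 1 or 2 (adjusted p up to 0.117, log2 fold change from -2.34 to -1.48 when 1 library was left out). Ctla4, the other receptor of CD80 and CD86, lies 113641 bases from Cd28 and had 0 counts in all libraries, and Raph1, a regulator of cell movement 149696 bases away, was not called (log2 fold change 0.13, adjusted p = 0.85 by edgeR).

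Dendritic cells and B cells are other leukocytes that carry B7 ligands or CD83. Xcr1 and Cd209a, markers of dendritic cells, had 0 counts in every library and Flt3 and Clec9a at most 3. The summed level of the 8 dendritic cell markers was 219 to 306 CPM in control and 277 to 342 CPM in LPS, nearly all of it Fscn1, an actin-bundling protein that is not restricted to these cells. Zbtb46, a transcription factor of conventional dendritic cells, was called lower (log2 fold change -0.62, adjusted p = 0.0265 by edgeR), a call lost in 5 of the 6 fits that left out a library (adjusted p up to 0.115). Itgax, the gene of the integrin CD11c, was at 1.86, 3.28 and 10.3 CPM in control and 0.741, 0.613 and 2.41 CPM in LPS, not called with all libraries (log2 fold change -2.03, from -2.92 to -1.02 when 1 library was left out) and called lower with the block (adjusted p = 0.0107 by edgeR). Ccr7, a chemokine receptor of migrating dendritic cells, had 1, 0 and 1 counts in control and 4, 7 and 4 in LPS. Of 5 B cell markers, 3 were at the floor throughout, and the summed level was 0.266 to 0.381 CPM in control and 2.56 to 2.77 CPM in LPS, where Pax5 (1.68 to 2.62 CPM) made up most of it and was called higher (adjusted p = 0.00259 by edgeR). The 5 mast cell markers summed to at most 0.381 CPM.

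Smooth muscle markers were lower in LPS, as Cd28, Cd83 and Cd276 were. All 6 were called lower, against 6.71% of all tested genes, with a median log2 fold change of -1.85, and their summed level was 2480, 2492 and 2266 CPM in control and 900, 882 and 634 CPM in LPS. The calls for Tagln, Cnn1, Actg2 and Des, which encode contractile and cytoskeletal proteins, held when any 1 library was left out. The call for Acta2 was lost without control replicate 1 or 2 (adjusted p up to 0.0636 by edgeR), and that for Myh11 was lost in 5 of the 6 such fits (adjusted p up to 0.144). The part of these cell types in the member results was not tested.

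Macrophage markers and several members were higher in the libraries numbered 3. In control replicate 3, where the 12 markers stood at a median of 2.69 times replicates 1 and 2, Icosl was at 3.42 times, Cd86 at 3.05 times, Cd83 at 2.62 times and Cd28 at 1.82 times, whereas Cd274 was at 1.31, Cd276 at 1.09 and Cd80 at 0.771 times. In LPS replicate 3, where the markers stood at a median of 6.85 times, Cd86 was at 4.61 times, but Cd28, Cd83, Icosl, Cd274, Cd276 and Cd80 lay between 0.843 and 1.27 times. Cd28 and Cd83 were as low in the LPS library with the most macrophage marker RNA as in the other LPS libraries. Over the 12 macrophage markers the median log2 fold change was 0.33, with 1 called higher (Adgre1, which encodes a macrophage surface protein; log2 fold change 2.78, adjusted p = 0.0452 by edgeR) and 0 lower, against 9.09% and 6.71% of all tested genes. With replicate number as a block 4 were higher and 3 lower, against 15.4% and 14.9%. The Adgre1 call was lost without replicate 1 or 2 of either group (adjusted p up to 0.169, log2 fold change from 1.95 to 3.36). Mrc1, the mannose receptor gene, was at 197, 331 and 752 CPM in control and 9.29, 10.4 and 131 CPM in LPS, not called (log2 fold change -3.08, adjusted p = 0.145, from -5.44 to -2.38 when 1 library was left out) but called lower with the block (adjusted p = 0.0124 by edgeR).

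When each member was expressed relative to the mean log2 CPM of the 12 macrophage markers in its library, the LPS and control libraries stayed apart for Cd274, Icosl, Cd83 and Cd28, with differences of 4.41, 3.56, -2.72 and -3.10 on the log2 scale. These differences depend on LPS replicate 3, which lay lowest among the LPS libraries for each of these members. The LPS values were 1.44, 1.37 and -1.06 for Cd274 and -0.94, -0.85 and -3.95 for Icosl. They were -4.23, -4.6 and -7.15 for Cd83 and -4.16, -4.6 and -7.15 for Cd28. A gene that follows the markers across libraries loses that spread on this scale, on which 4.52% of all tested genes did not overlap, 2.97% with LPS higher and 1.55% with LPS lower. The values of Cd86 did not overlap either, with -5.39, -5.85 and -5.74 in control and -4.45, -4.38 and -5.05 in LPS. The mean of the markers itself differed by -0.08 between groups. Cd276 and Cd80 overlapped on this scale. Single markers were called in either direction with the block, so the scale is no measure of cell number, and the part of macrophages in the member results was not tested.

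**Figure D3:**
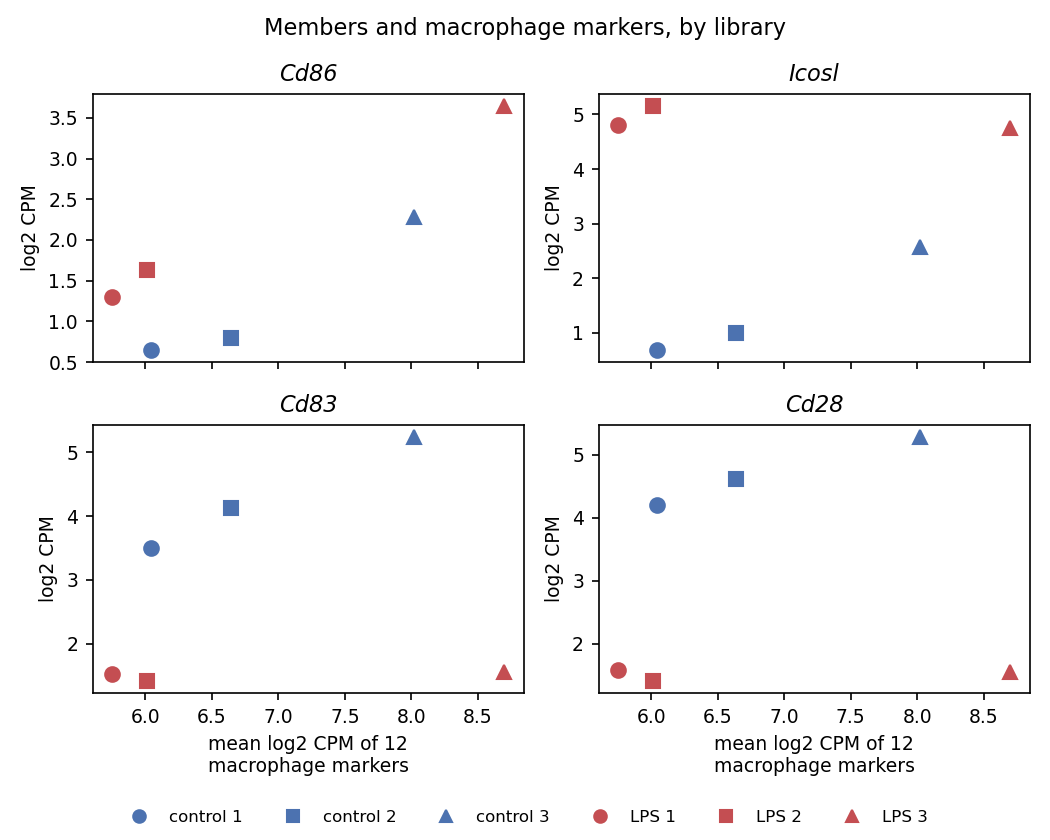
Log2 CPM of Cd86, Icosl, Cd83 and Cd28 (y axes, prior count 2) against the mean log2 CPM of 12 macrophage markers (x axis) in each of the 6 libraries, coloured by group with symbols for replicate numbers. Cd86 is highest in the libraries with the highest marker level in both groups, while Cd83 and Cd28 stay low in all LPS libraries, including replicate 3 at 8.70 on the x axis.

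The order of the members changed with LPS when levels were compared per kilobase of exon. In control, Cd276 was highest at 16.6 ± 0.939 CPM per kilobase (SD, n = 3), above the range of the next member, Cd83, at 8.58 ± 5.35 CPM per kilobase. The ranges of Cd83 and Cd28 overlapped, as did those of Cd28 and Cd80 and of Cd80 and Cd274. Within libraries, Cd83 was above Cd28 in every control (4.38, 6.75 and 14.6 against 2.99, 3.97 and 6.35 CPM per kilobase). The order was not the same in every control for Cd28 and Cd80, or for Cd80 and Cd274. Cd274 at 2.31 ± 0.373 CPM per kilobase was above Cd86 at 0.717 ± 0.504. The range of Cd86 overlapped that of Icosl at 0.671 ± 0.521, and Cd86 lay slightly above Icosl in every control. In LPS, Cd274 led at 47.0 ± 7.36 CPM per kilobase, followed without overlap by Cd276 at 12.2 ± 1.13 and Icosl at 6.52 ± 1.05. Cd80 at 2.54 ± 0.230 overlapped Cd86 at 1.62 ± 1.53, which overlapped Cd83 at 1.06 ± 0.0537 and lay below it in LPS replicates 1 and 2. Cd28 at 0.452 ± 0.0299 CPM per kilobase was the lowest of the tested members in LPS.

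Among tested genes ranked by level per kilobase, Cd274 lay at percentile 33.2 in control and 93.0 in LPS, and Icosl at 15.4 and 56.3. Cd28 lay at percentile 47.4 in control and 11.4 in LPS, and Cd83 at 65.1 and 21.4. The levels of Cd83 and the 6 ligand genes summed to 27.2, 29.1 and 40.3 CPM per kilobase in control, and 62.2, 69.6 and 81.2 in LPS. Cd274 made up 7.24% ± 0.549 of this sum in control and 66.1% ± 1.49 in LPS (SD, n = 3 each). The share of Cd276 was 52.8% ± 7.86 in control and 17.2% ± 1.09 in LPS (SD, n = 3 each), and that of Cd83 was 25.2% ± 10.2 and 1.50% ± 0.198. Shares of a sum are bound to each other, so they describe the mixture and are not separate changes.

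**Figure D4:**
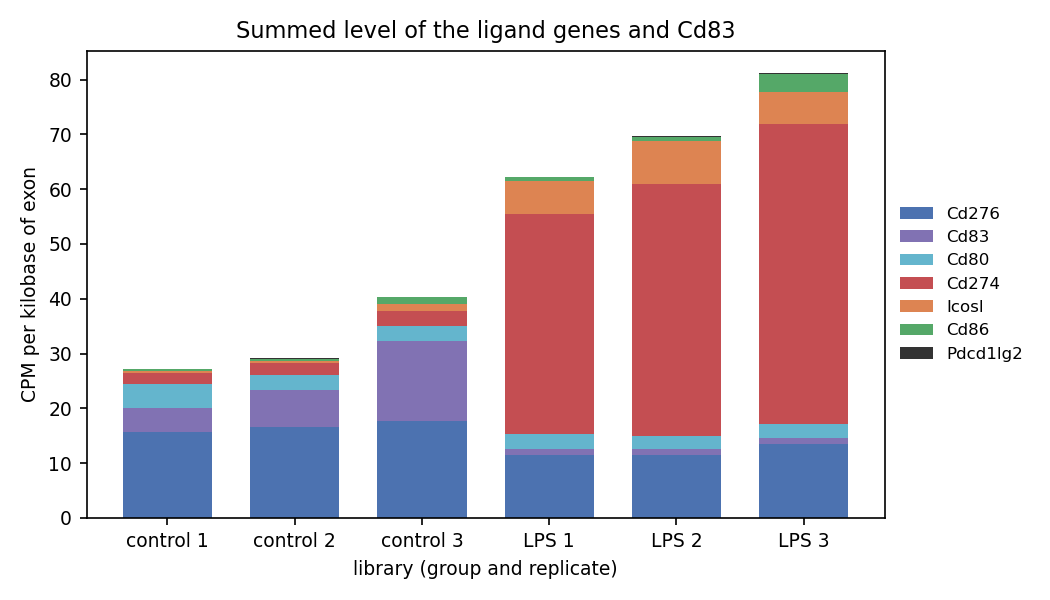
Stacked level in CPM per kilobase of exon (y axis, starting at 0) of Cd80, Cd86, Cd274, Pdcd1lg2, Icosl, Cd276 and Cd83 in each library. Cd276 and Cd83 fill most of the control bars, and Cd274 fills 64.5% to 67.5% of the LPS bars.

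The receptors and other relatives of the B7 and CD28 families were mostly at or near the floor. Of 14 further family genes, 5 passed the filter, with a median log2 fold change of 1.09, and 5 were at the floor in all libraries. Of those tested, 1 was called higher and 0 lower, against 9.09% and 6.71% of all tested genes, and with replicate number as a block 2 were higher and 1 lower, against 15.4% and 14.9%. Tnfrsf14, which encodes HVEM, a ligand of BTLA and CD160, was called higher, at 3.26, 3.28 and 5.46 CPM in control and 11.5, 13.8 and 26.7 CPM in LPS (log2 fold change 2.11, adjusted p = 0.0231 by edgeR), a call lost without control replicate 1 or 2 or LPS replicate 2 (adjusted p up to 0.108). Icos, the receptor of the ICOS ligand, was at 0.248 to 0.531 CPM in control and 0.68 to 1.19 CPM in LPS without a call (adjusted p = 0.119), and was called with replicate number as a block (adjusted p = 0.0496 by edgeR). Pdcd1, which encodes PD-1, had 0, 0 and 3 counts in control and 1, 0 and 5 in LPS. Vsir, which encodes the inhibitory B7 relative VISTA, was at 51.2, 59.3 and 121 CPM in control and 34.9, 41.5 and 107 CPM in LPS (log2 fold change -0.34, adjusted p = 0.716), and was called lower with the block (adjusted p = 0.0378). When 1 library was left out, the log2 fold change of Vsir without the block ran from -1.02 to 0.16. Rgmb, whose protein also binds PD-L2, was at 46.1 to 71.4 CPM over the 6 libraries and was not called.

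Genes that act downstream of CD28 in T cells were examined next. Of 12, 9 were tested, and LPS was higher by this call for 2 and lower for 1, against 9.09% and 6.71% of all tested genes, and their median log2 fold change was 0.71. Bcl10 (0.71, adjusted p = 0.0126) and Malt1 (2.06, adjusted p = 0.0164) rose, both of them partners in a complex that carries receptor signals to NF-κB in many cell types. Pik3r1, the regulatory subunit of PI3-kinase, fell (-0.34, adjusted p = 0.0278). The adaptor gene Grap2 was at the floor in all libraries. Each of these 3 calls was lost in at least 4 of the fits that left out a library (adjusted p up to 0.135 by edgeR), and with replicate number as a block Vav1 and Lcp2 were also called higher and Prkcq lower, in a fit that called 30.3% of tested genes.

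Interferon receptor and JAK-STAT genes, interferon-response factors and NF-κB subunits, which are known to control Cd274 and other members, were mostly higher in LPS. All 14 were tested, 10 were called higher and 0 lower, against 9.09% and 6.71% of all tested genes, and their median log2 fold change was 1.38, beside -0.02 over all tested genes. The list was chosen with earlier results of these data known, so these counts describe it and are no test. Irf1, an interferon-response factor, was at 19.0 to 26.2 CPM in control and 78.8 to 94.4 CPM in LPS (log2 fold change 1.99, adjusted p = 0.00144 by edgeR). Nfkb1 (1.86, adjusted p = 0.00044) and Relb (2.0, adjusted p = 0.000631) rose as well. Ifngr1, Stat3, Irf2 and Rel were not called, and Stat3 (log2 fold change 0.34, adjusted p = 0.0506) was called higher with the block (adjusted p = 0.0229 by edgeR).

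Genes that set the turnover of B7 proteins at the membrane differed in both directions. Of 11, 2 were called higher and 1 lower, against 9.09% and 6.71% of all tested genes, with a median log2 fold change of 0.07. With replicate number as a block 4 were higher and 2 lower, in the fit that called 15.4% of tested genes higher and 14.9% lower, and Adam10 (adjusted p = 0.0138, lower), Cops5 (0.0416, higher) and March1 were the additional calls. Adam17, a protease that sheds membrane proteins, rose from 114 to 155 CPM in control to 251 to 316 CPM in LPS (log2 fold change 1.07, adjusted p = 0.0104 by edgeR), and the call was lost without control replicate 2 (adjusted p = 0.0659). Spop, an adaptor of a ubiquitin ligase for PD-L1, rose (0.31, adjusted p = 0.0255), and Cmtm4, a stabilizer of PD-L1, fell (-0.49, adjusted p = 0.0235), and both calls were lost in 4 of the 6 fits that left out a library. Cmtm6, its better known relative, was at 78.1 to 117 CPM in control and 73.4 to 121 CPM in LPS and was not called. March1, the ubiquitin ligase that removes CD86, was at 7.08, 10.6 and 22.7 CPM in control and 19.2, 18.9 and 106 CPM in LPS, without a call (adjusted p = 0.197), and was called higher with the block (adjusted p = 0.0225 by edgeR).

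The genes most like each member across the 6 libraries were found by the root mean square difference of log2 CPM, each gene centred on its own mean, among 11480 genes of at least 5 CPM. The comparison includes the group difference and is a description. Nearest to Cd274 were Xaf1 (0.0939), Ifi203 (0.1) and Gbp7 (0.16), which are known as interferon-induced genes. Nearest to Icosl were Timp1 (0.182), Ch25h (0.214) and Ccl3 (0.291). Cd86 was nearest to Ptpn6 (0.135), Ikzf1 (0.172) and Pirb (0.177), which are best known from blood cells.

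Cd28 and Cd83 resembled each other, with a difference of 0.272, which put Cd28 first in the order for Cd83 and Cd83 after 2 other genes in the order for Cd28. Hpgd, which encodes a prostaglandin-degrading enzyme (0.246), and Rasgrp3 (0.26) were nearer to Cd28. Reps2 (0.33) and Hpgd (0.34) followed for Cd83. Cd80 was nearest to Mettl17, Tob1 and mt-Nd2 (0.0918 to 0.0979) and Cd276 to Lrp6, Ptgr2 and Lcorl (0.0208 to 0.0314).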

How the data were processed

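RNA of 6 libraries was analysed, 3 control and 3 LPS, grouped by the labels. The authors deposited unnormalized read counts for each gene. According to the series' design text and processing notes, reads of a stranded poly(A) library kit were trimmed (cutadapt 1.15), freed of contaminants (Bowtie2 2.3.3.1), mapped to GRCm38 (STAR 2.5.2b) and filtered (SAMtools 1.5), and featureCounts 1.5.3 is named as well. The strand setting and the handling of multiply aligned reads were not given in the sources used here. Genes were filtered with filterByExpr (minimum count 10, minimum total 15), which kept 15226 of 46603, scaled with TMM (factors 0.917 to 1.08) and compared by the quasi-likelihood test of edgeR 4.0.16 in R 4.3.3, two-sided, modelling group alone, and p-values were adjusted by Benjamini-Hochberg across the tested genes. SEs were taken from the fold change and its F statistic. The procedure was also run on simulated counts, drawn independently for each gene and library. They hold no effect of replicate number, and their outcome is not reported here. Exon lengths and coordinates come from GENCODE M21 (GRCm38), where 46005 identifiers were found, and promoters from RefSeq (GRCm38.p6).

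Alternatives were upper-quartile and RLE scaling, library size alone, other filters, DESeq2 1.42.0, the edgeR exact test, limma-voom (limma 3.58.1), a replicate block, and leaving out single libraries. Leaving out both libraries numbered 3, and combining the block with no filter, were chosen after seeing the data. Same-numbered control and LPS libraries deviated from their group means alike (correlation over genes r = 0.513, 0.334 and 0.613). All exceeded 0.1, the limit for accepting a pairing, which thus comes from these data and not from the labels. Control 1 with LPS 2 (r = 0.419) and control 2 with LPS 1 (r = 0.323) exceeded that limit too. The deviations therefore set only the libraries numbered 3 apart, and cannot tell the numbering of replicates 1 and 2 from a swapped one. The members and lists were chosen with earlier results of these data known. Their counts of calls beside the shares of all tested genes are thus descriptions and no tests. Named genes are the members, called list genes or else at most 4 of the most abundant, floor genes that define a cell type, the 3 genes most like each member, and neighbours of Cd28 and Cd274 within 200 kb. Not every called list gene is printed. Icos, Vsir, Pdcd1, Mrc1, Trac, Lck, Lum, Thy1, Itgax, Ccr7, Adam10, Cops5, Vav1, Lcp2, Prkcq, March1, Cmtm6 and Rel were named after their values were seen. Floors cover counting error only.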

Additional observations from a re-analysis of the deposited data

How the results depend on the processing

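Under the 17 alternatives no member's log2 fold change changed sign. Cd274, Cd28 and Cd80 kept their calls, or their lack of one, in all 17, Icosl and Cd83 in 13 and Cd276 in 12, while Cd86 gained a call in 3. Members called higher numbered 2, and 1 to 2 when 1 library was left out, and members called lower 3, and 1 to 3. The Cd80 to Cd86 difference of -1.32 ranged from -1.97 to -0.59 when 1 library was left out. With the replicate block, accepted from the pairing of deviations, 2 family genes were higher and 1 lower (main 1 and 0), 4 CD28 signalling genes higher and 2 lower (main 2 and 1), and 4 turnover genes higher and 2 lower (main 2 and 1), and the block changed no member's call except that of Cd86. LPS replicate 2 deviated more like control replicate 1 (r = 0.419) than like control replicate 2. Leaving out both libraries numbered 3 gave 1 family gene lower, 4 signalling genes higher and 2 lower, and 5 turnover genes higher and 2 lower, in a fit that called 43.0% of all tested genes, against 15.8% with all libraries and 30.3% with the block. The block without a filter gave 1 family gene lower, 4 signalling genes higher and 2 lower, and 2 turnover genes lower. DESeq2 called 2 signalling and 2 turnover genes lower. The exact test and the test without a filter each called 0 signalling genes lower and 1 turnover gene higher. Library size alone and upper-quartile scaling each gave 1 turnover gene higher and 2 lower, and limma-voom and a filter of 10 counts in every library 2 lower. Leaving out 1 library gave 0 to 1 family genes higher, 0 to 2 signalling genes higher and 0 to 1 lower, and 0 to 3 turnover genes higher and 0 to 2 lower. The interferon and NF-κB genes called higher numbered 8 to 11, and 13 with both libraries numbered 3 left out. The median of all tested genes was -0.12 with upper-quartile scaling and -0.18 with library size alone. A ratio of Cd274 to Pdcd1lg2 had no value, with Pdcd1lg2 at 0 counts in 2 controls. The causes were not tested.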
